A study of Mus musculus with 8 samples.

Results

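The neuronal nicotinic acetylcholine receptor subunits were followed in mouse lumbar dorsal root ganglia after a spinal nerve ligation. The 10 genes are the alpha subunits Chrna3, Chrna4, Chrna5, Chrna6, Chrna7, Chrna9 and Chrna10 and the beta subunits Chrnb2, Chrnb3 and Chrnb4, chosen by name as neuronal subunits and found among the 53801 genes of the count table. Their counts per 1000000 counted reads (CPM) were taken in 8 RNA-seq libraries, each made from the L3 to L5 ganglia that 3 mice gave to a pool. The labels name male C57BL/6J mice with a tight tie around the L4 spinal nerve on the left. 3 libraries came from the injured left side at days 1, 3 and 7, and 3 from the uninjured right side (contralateral) of the same mice. A further pool is labelled no injury and gave the last 2 libraries, left and right. Each injured-side library therefore also holds a pair of neighbouring ganglia whose nerve was not tied. Both sides of a pool come from the same animals, and the injured side was always the left.

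A nicotinic receptor is a ring of 5 subunits around a cation channel that opens when acetylcholine or nicotine binds. The subunit mix sets how the channel responds: Chrna7 can form channels alone, most other alpha subunits need a beta partner, and Chrna5 and Chrnb3 are accessory subunits that join a receptor without forming the usual binding site. Dorsal root ganglia are where sensory neurons keep their cell bodies, wrapped by satellite glia. Sensory neurons carry several nicotinic subtypes, and the Chrna6 subunit has been tied to pain control in these cells.

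Total reads ran from 20488115 to 21652688 a library, and a library with 0 reads of a gene still allows up to 3 reads, or 0.139 to 0.146 CPM. Such limits and the intervals given with ratios cover counting error only. Atf3, a transcription factor induced in injured sensory neurons, was at 464, 629 and 618 CPM in the injured libraries of days 1, 3 and 7, at 110 to 167 CPM contralaterally and at 10.9 and 11.0 CPM in the no-injury libraries. Both no-injury libraries held reads of Xist, the RNA of the inactive X chromosome (4931 and 4129, against at most 3 elsewhere), and 0 reads of the Y-linked gene Kdm5d, which was at 13.1 to 16.7 CPM in the others. That pool thus goes against the male label, and sex and injury cannot be told apart in contrasts with it. Defining sensory neuron genes were present in every library, with Prph at 1530 to 1860 CPM and Avil at 992 to 1200 CPM. In RNA from whole ganglia, fewer cells of a type and less RNA per cell cannot be told apart.

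Chrna9 was at the detection floor, and it was the only member there. It had 3 reads (0.146 CPM) in the day 1 injured library and 0 reads in the other 7, so it did not pass the low-count filter and was not tested. No other member had a mean under 10 reads a library. The sparsest of the remaining 9 were Chrna5, with a mean of 33.6 reads, and Chrna10, with 37.4. In the no-injury libraries Chrna5 was down to 10 and 8 reads.

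The order of the subunits was read per length, in reads per kilobase of exon (RPKM, on the same 1000000 reads), over the 5 libraries that did not come from an injured side. Chrna6 led with 22.9 ± 2.04 RPKM (SD, n = 5). Chrnb2, the main beta partner in neuronal receptors, followed with 16.0 ± 0.718, and Chrna7 with 12.0 ± 0.453. The ranges of these top genes did not overlap each other. A middle group held Chrna3 (2.19 ± 0.601), Chrnb3 (1.79 ± 0.185), Chrnb4 (1.76 ± 0.534) and Chrna4 (1.44 ± 0.268), and within it each gene's range overlapped that of the next. Chrna10 (0.777 ± 0.135) and Chrna5 (0.238 ± 0.120) lay lower, each clear of its neighbours in the order. The 5 libraries include both sides of 1 pool, so the SDs describe these libraries.

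**Figure D1:**
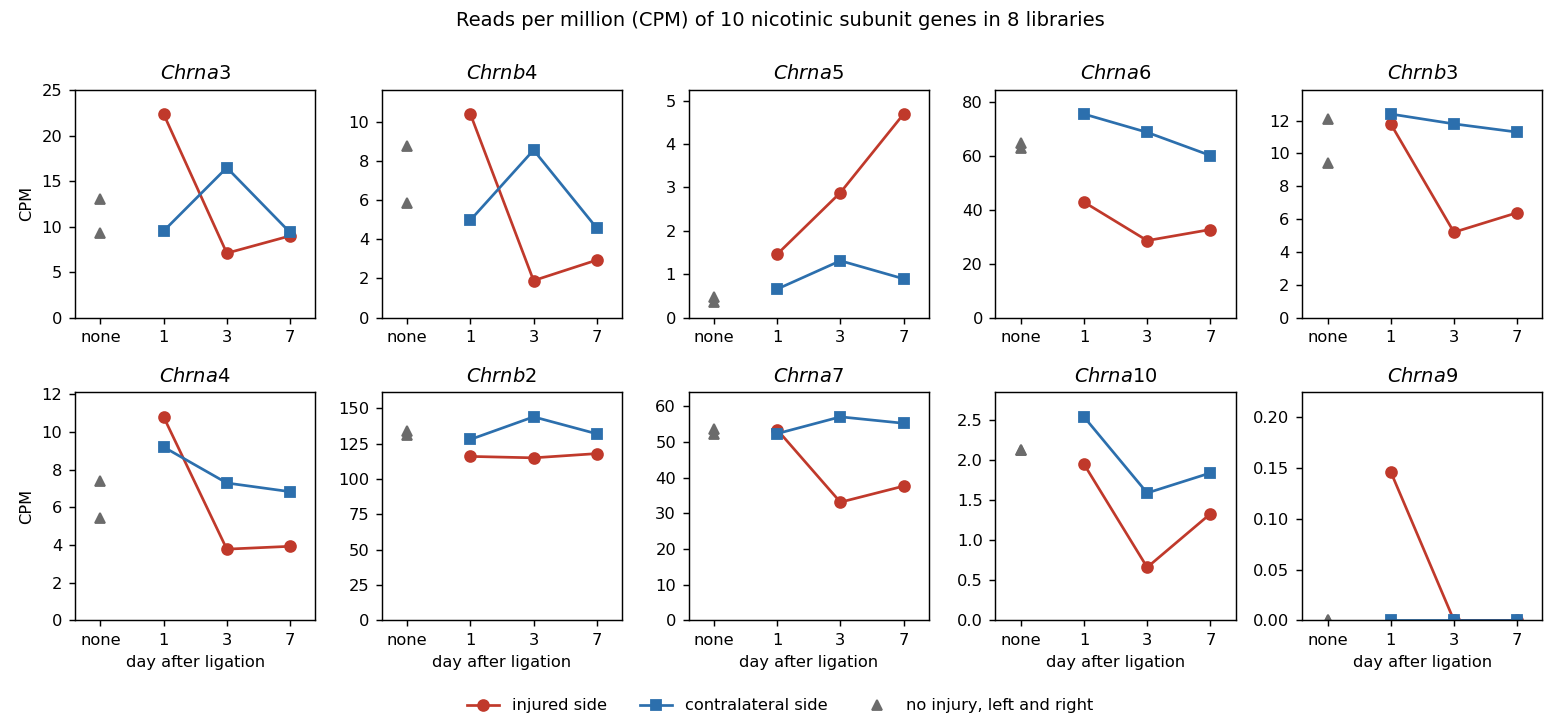
Level of each subunit gene in CPM (y axis, linear, starting at 0) against the day after ligation (x axis), with 1 point per library. Red circles are the injured side, blue squares the contralateral side and grey triangles the no-injury pool. At each day Chrna5 is higher and Chrna6 lower on the injured than on the contralateral side.

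5 of the 10 genes lie in clusters. On chromosome 9 (GRCm38) Chrna5 (54980880-55007779, plus strand), Chrna3 (55010111-55026562, minus) and Chrnb4 (55028154-55048779, minus) are neighbours with 2331 and 1591 bases between them. On chromosome 8 Chrnb3 (27368711-27399730, plus) and Chrna6 (27403212-27413944, minus) are 3481 bases apart. Chrna4 is on chromosome 2, Chrnb2 on 3, Chrna9 on 5, and Chrna7 and Chrna10 on 7. Exons overlap a gene on the other strand for Chrna10 (1025 bases shared with Art1, 39.0% of its exon bases) and for Chrnb2 (1365 bases shared with Adar, 16.3%). No source used here says whether the counting used strand, so reads in those stretches could belong to either gene, and Adar, with a mean of 1903 reads, is well covered.

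The start regions of the chromosome 9 cluster are shown because the side ratios of its members differed between pools. RefSeq promoter windows (GRCm38.p6, 250 bases before to 50 after a start) matched 8 of the 10 members, with 2 windows for Chrna5. They were searched on both strands for GGGCGG (the GC box bound by Sp1), TGANTCA (AP-1), TGACGTCA (the cyclic AMP response element), CAGCTG (an E box) and ACAAAG (a Sox motif). The parts of 3 windows that lie outside every annotated exon, 5′ to 3′ on the gene's strand with the matches in capitals, read:
Chrna5 first start, chr9:54980630-54980879 (+): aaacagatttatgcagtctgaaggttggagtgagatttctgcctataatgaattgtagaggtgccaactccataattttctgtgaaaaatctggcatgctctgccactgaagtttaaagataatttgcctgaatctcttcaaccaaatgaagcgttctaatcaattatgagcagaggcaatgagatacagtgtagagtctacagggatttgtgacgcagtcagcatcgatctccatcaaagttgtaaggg
Chrna5 second start, chr9:54981248-54981465 (+): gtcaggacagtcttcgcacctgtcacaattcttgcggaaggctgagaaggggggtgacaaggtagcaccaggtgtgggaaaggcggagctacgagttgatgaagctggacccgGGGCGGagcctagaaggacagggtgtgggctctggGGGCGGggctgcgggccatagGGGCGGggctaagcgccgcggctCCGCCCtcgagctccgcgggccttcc
Chrna3, chr9:55026563-55026812 (-): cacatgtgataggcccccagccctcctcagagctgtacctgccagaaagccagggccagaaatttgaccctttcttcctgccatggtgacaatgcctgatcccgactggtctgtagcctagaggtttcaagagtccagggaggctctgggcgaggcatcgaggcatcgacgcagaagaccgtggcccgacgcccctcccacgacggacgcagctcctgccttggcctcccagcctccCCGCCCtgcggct
The Chrna5 starts differ in base content: 40.0% of bases are G or C at the first and 67.0% at the second, with 3 and 16 CG dinucleotides. The second start holds 4 GC boxes and the Chrna3 stretch 1, and 35.7% of 32851 promoter windows of all genes hold at least 1. In the Chrnb4 window, nearly all of which is inside the annotated first exon, the CAGCTG letters occurred once, as they did in 16.3% of all windows. None of the letters of AP-1 (in 7.81% of all windows), the cyclic AMP response element (1.79%) or Sox (18.7%) occurred in these windows. These matches describe letters only, and the count table does not say which Chrna5 start was used.

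The comparison of sides asked how the ligation changed each subunit within the same animals. Chrna5 rose on the injured side, Chrna6 fell, and the other 7 tested members did not pass the test. The test was edgeR's quasi-likelihood test over all 8 libraries with the pool as a block and Benjamini-Hochberg adjustment at 0.05 over 16244 genes. Among all those genes 10.1% were called higher and 8.02% lower, so 1 member in each direction of 9 is near that background. The members' median log2 fold change was -0.47, against 0.02 over all genes tested.

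Chrna5, the accessory alpha subunit, was at 1.46, 2.88 and 4.69 CPM in the injured libraries of days 1, 3 and 7. The contralateral side of the same pools had 0.657, 1.31 and 0.894 CPM, and the no-injury libraries 0.482 (left) and 0.369 (right). All 3 injured libraries lay above all 5 others, the day 1 library by a small margin over the day 3 contralateral one. The fitted log2 fold change was 1.57 ± 0.312 (SE), 2.97-fold, with an adjusted p of 0.0161 in edgeR's quasi-likelihood test and the same sign in 3 of 3 pools. The largest ratio was that of day 7, 5.24-fold with a 95% exact interval of 3.19 to 9.07, from 99 and 19 reads. At day 1 the counts were 30 and 14 reads, a 2.23-fold ratio with an interval of 1.15 to 4.55. Without the day 7 pool the log2 fold change was 1.13 with an adjusted p of 0.112, so the call was lost. The calls over all genes also fell there, from 2946 to 631.

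Chrna6, a subunit of receptors at sensory and catecholamine neurons, was at 42.9, 28.6 and 32.7 CPM in the injured libraries of days 1, 3 and 7. The contralateral libraries had 75.6, 68.8 and 60.2 CPM, and the no-injury libraries 65.0 (left) and 63.1 (right). The injured range and the range of the 5 others did not overlap. The fitted log2 fold change was -0.99 ± 0.0976 (SE), to 0.503 of the contralateral level, with an adjusted p of 0.00217 in edgeR's quasi-likelihood test and the same sign in 3 of 3 pools. The ratio was lowest at day 3, at 0.416 (95% exact interval 0.378 to 0.457). Left and right of the no-injury pool differed by 1.03-fold, an interval of 0.955 to 1.11. Leaving out any 1 injured pool kept the call, with log2 fold changes from -1.10 to -0.83.

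Both calls were lost when body side, which coincides with injury in the ligated mice, was added as a term: Chrna6 kept a log2 fold change of -1.02 with an adjusted p of 0.402, and Chrna5 had 1.20 with 0.669. In that fit only 6 of 16244 genes were called. Both calls were also lost for the injured libraries against the no-injury pool, where Chrna6 had -0.88 (adjusted p 0.287) and Chrna5 2.81 (adjusted p 0.289), 23 genes being called in all. Without the pool that goes against its sex label, Chrna5 had a log2 fold change of 1.57 (adjusted p 0.0466) and Chrna6 -0.99 (adjusted p 0.0171), both still called by edgeR.

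**Figure D2:**
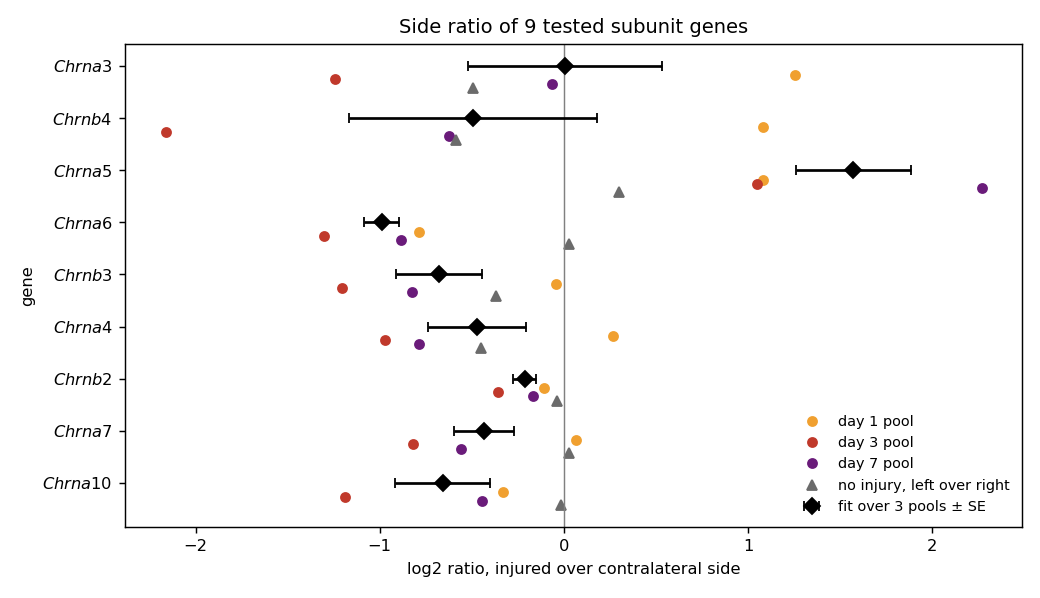
Log2 ratio of the injured over the contralateral side (x axis, TMM-normalised) for the 9 tested subunit genes (y axis), with coloured points for the pools of days 1, 3 and 7, grey triangles for left over right in the no-injury pool, and black diamonds with bars for the fitted value ± SE. Chrna5 is right of 0 and Chrna6 left of 0 in all 3 pools, and Chrna3 and Chrnb4 spread to both sides of 0.

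Neither Chrnb2 nor Chrnb3, the beta subunits outside the chromosome 9 cluster, passed the test. Chrnb2 was at 116, 115 and 118 CPM on the injured side against 128, 144 and 132 CPM contralaterally and 131 and 134 CPM without injury. The 3 injured libraries were the lowest of the 8, with no overlap, yet the log2 fold change of -0.21 ± 0.0625 (SE) had an adjusted p of 0.052 in edgeR's test. Chrnb3, the accessory beta subunit beside Chrna6, was at 11.8, 5.20 and 6.39 CPM on the injured side, 12.4, 11.8 and 11.3 CPM contralaterally, and 9.40 (left) and 12.1 (right) CPM without injury. Its day 1 libraries were nearly level, and those of days 3 and 7 lay below all others on the injured side. The fit over 3 pools gave -0.68 ± 0.233 (SE) with an adjusted p of 0.0943.

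Chrna4, which with Chrnb2 forms the high-affinity nicotine receptor of the brain, was at 10.8, 3.78 and 3.93 CPM on the injured side and 9.20, 7.29 and 6.83 CPM contralaterally, with 5.45 (left) and 7.39 (right) CPM without injury. The day 1 injured library was the highest of the 8, and the later injured libraries the lowest. Its log2 fold change was -0.47 ± 0.267 (SE), adjusted p 0.265 in edgeR's test. Chrna7, the subunit of the calcium-permeable homomeric receptor, was at 53.4, 33.1 and 37.6 CPM on the injured side, 52.3, 57.0 and 55.2 CPM contralaterally and 53.7 and 52.1 CPM without injury. Day 1 was level with the uninjured libraries, and days 3 and 7 were below all of them. Over the 3 pools the log2 fold change was -0.44 ± 0.162 (SE), adjusted p 0.118. Chrna10, best known with Chrna9 in cochlear hair cells, was at 1.95, 0.662 and 1.33 CPM on the injured side, 2.54, 1.59 and 1.84 CPM contralaterally and 2.12 CPM in both no-injury libraries. Its groups overlapped, and its log2 fold change of -0.66 ± 0.257 (SE) had an adjusted p of 0.112 in edgeR's test.

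Chrna3 and Chrnb4, which together form the receptor of autonomic ganglia, differed between pools in direction. Chrna3 was at 22.4, 7.09 and 8.99 CPM in the injured libraries of days 1, 3 and 7, and 9.53, 16.5 and 9.37 CPM contralaterally. Without injury it was at 9.35 (left) and 13.1 (right) CPM. The day 1 injured library was the highest of all 8 and the day 3 injured library the lowest, while on the other side day 3 was the highest. Day 1 had a 2.35-fold ratio of sides (95% exact interval 1.98 to 2.78), day 3 had 0.431 (0.354 to 0.523) and day 7 had 0.960 (0.783 to 1.18). The fitted log2 fold change was 0.01 ± 0.527 (SE), adjusted p 0.996 in edgeR's test.

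Chrnb4 was at 10.4, 1.89 and 2.94 CPM in the injured libraries of days 1, 3 and 7. It was at 4.98, 8.56 and 4.57 CPM contralaterally and at 5.88 (left) and 8.77 (right) CPM without injury. Its day 1 injured library was again the highest of the 8, and those of days 3 and 7 were the lowest. Day 1 had a 2.09-fold ratio (95% exact interval 1.65 to 2.66), day 3 had 0.221 (0.153 to 0.313) and day 7 had 0.643 (0.460 to 0.893). The fitted log2 fold change was -0.49 ± 0.673 (SE), adjusted p 0.658.

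These cluster genes also differed between sides without injury. Left over right in the no-injury pool was 0.716 for Chrna3 (95% exact interval 0.593 to 0.862) and 0.670 for Chrnb4 (0.529 to 0.846). Chrna4 at 0.737 (0.574 to 0.944) and Chrnb3 at 0.780 (0.644 to 0.942) differed there too, beyond counting error. Chrna6, Chrna7 and Chrnb2 had intervals that included 1. With 1 library per side and day there is no replicate of a single pool's ratio.

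**Figure D3:**
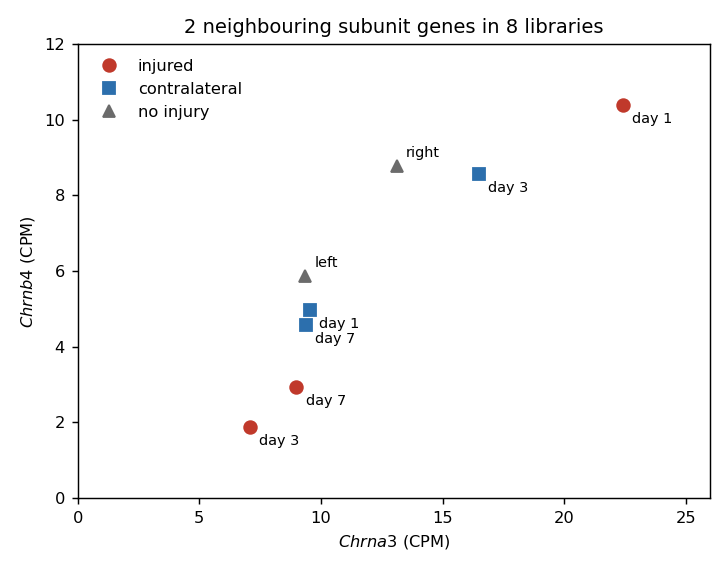
Level of Chrnb4 (y axis, CPM) against Chrna3 (x axis, CPM) in the 8 libraries, marked by group and day or side. The day 1 injured library is at the top right, with 22.4 CPM of Chrna3 and 10.4 CPM of Chrnb4, and the day 3 injured library at the lower left, with 7.09 and 1.89 CPM.

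Chrna3 and Chrnb4 varied together over the 8 libraries, with a Pearson r of 0.880 between log2 CPM values. The third gene of the cluster did not share that pattern, since Chrna5 had an r of -0.17 with Chrna3. Among all members the highest r was that of Chrna7 with Chrnb3 (0.957) and the lowest that of Chrna5 with Chrna6 (-0.84). The points share pools and depth, so these are descriptions. Per length, Chrna3 was 1.05 to 2.65 times Chrnb4, highest in the day 3 and day 7 injured libraries (2.65 and 2.17). Chrna5 relative to Chrna3 was 0.110, 0.685 and 0.878 on the injured side at days 1, 3 and 7, and 0.0476 to 0.161 in the 5 other libraries.

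Because Chrna3 and Chrnb4 mark autonomic neurons, sympathetic markers were read beside them. The defining gene Hand2 had at most 1 read in any library and Dbh, the noradrenaline-making enzyme, had 1, 6 and 20 reads on the injured side at days 1, 3 and 7 and 1 to 5 in the other libraries. The summed level of the 8 sympathetic markers was 90.6, 44.5 and 45.4 CPM in the injured libraries of days 1, 3 and 7 and 71.9 to 105 CPM in the other libraries. Nearly all of it was Th, the enzyme that makes the dopamine precursor L-DOPA, which some sensory neurons also carry, at 87.3, 41.7 and 41.4 CPM on the injured side. Slc6a2, the noradrenaline transporter, had 29 reads in the day 1 injured library and 2 to 8 in the others. Gata3 had 6, 8 and 14 reads in the injured libraries and 0 to 3 elsewhere. Ddc went the other way, with 18, 20 and 19 reads in the injured libraries of days 1, 3 and 7 and its most, 40, contralaterally at day 3. Slc18a2 ran from 12 to 24 reads over the 8 libraries. The low-read markers thus peaked in different libraries and not all on the injured side. Their part in the Chrna3 and Chrnb4 levels was not tested.

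The members past a 2-fold ratio of sides, of those with 50 or more reads on the side with more, differed by day. At day 1 2 of 8 were higher and none lower (Chrna3 and Chrnb4), against 2.43% of all genes past 2-fold in either direction. At day 3 1 was higher (Chrna5) and 4 were lower (Chrna3, Chrna6, Chrnb3 and Chrnb4) of 8, against 7.45%. At day 7 1 of 8 was higher (Chrna5), against 3.85%. Chrna5 reached 50 reads only through the injured side, where it was high (61 against 28 reads at day 3, 99 against 19 at day 7). At day 1, with 30 and 14 reads, it was not counted, so its entry depended on the read limit. In the no-injury pool none of 7 was past 2-fold, against 0.894% of all genes. The members' median log2 ratio was 0.01 at day 1, -1.09 at day 3 and -0.59 at day 7, with medians over all genes of 0.02, 0.01 and 0.00. It was -0.37 for left over right without injury.

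No member's side difference changed with the day in edgeR's test on log2 of the day, with adjusted p-values from 0.614 to 0.966, and 0 of 16244 genes did (0%; 1299 had an unadjusted p under 0.05, 1 of them a member, Chrna4). DESeq2 called 49 genes and no member, and gave 6 of the members no adjusted p. These slopes rest on single pools, and each fit without a pool has 1 residual degree of freedom. Without the day 7 pool 6 members were called lower with time (Chrna3, Chrna4, Chrna6, Chrna7, Chrnb3 and Chrnb4), beside 1214 of 16386 genes called in either direction. Without the day 3 pool only Chrna7 was called, beside 519 of 16434 genes. Without the day 1 pool no member was, beside 94 of 16480. The fitted slope of every tested member changed sign when 1 of the pools was left out. A contrast of day 1 against days 3 and 7, chosen after the values were seen, called Chrna7: its side difference was lower at the later days by a log2 fold change of -0.75 ± 0.137 (SE, adjusted p 0.0467), against 0.529% of all genes called lower. In that contrast Chrnb4 had -2.51 ± 0.713 (adjusted p 0.214), Chrna3 -1.93 ± 0.620 (0.306), Chrna4 -1.16 ± 0.308 (0.111) and Chrnb3 -0.98 ± 0.276 (0.128), none past the threshold.

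More members were called without the day 1 pool than with it. Leaving it out, 6 members were called by edgeR, 1 higher and 5 lower, beside 14.5% and 13.9% of all genes. The 5 lower were Chrna6 (log2 fold change -1.10, adjusted p 0.0001), Chrnb3 (-1.02, 0.00188), Chrna4 (-0.90, 0.00769), Chrna7 (-0.69, 0.000268) and Chrnb2 (-0.27, 0.0170), and Chrna5 was the higher (1.72, 0.00480). Chrnb4 (-1.42, 0.0832), Chrna10 (-0.84, 0.0813) and Chrna3 (-0.67, 0.288) did not pass. The log2 fold change of Chrna3 was -0.67 without the day 1 pool and 0.63 without the day 3 pool.

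As a share of the summed RPKM of the 10 genes, Chrna6 made up 28.0%, 27.7% and 28.1% on the injured side at days 1, 3 and 7, and 37.1% to 42.7% in the 5 other libraries. Chrnb2 made up 26.2%, 38.7% and 35.3% on the injured side and 25.0% to 28.3% in the others. So, per length of annotated exon, Chrna6 led in each uninjured library and Chrnb2 led at days 3 and 7 on the injured side. In CPM, which is not divided by length, Chrnb2 (8380 exon bases) was above Chrna6 (2906) in every library. Chrna5 made up 0.889%, 2.60% and 3.75% there, against 0.203% to 0.662%. The summed level itself was 52.7, 35.5 and 40.0 RPKM on the injured side and 55.9 to 63.2 in the others. All 3 injured libraries lay below those 5.

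**Figure D4:**
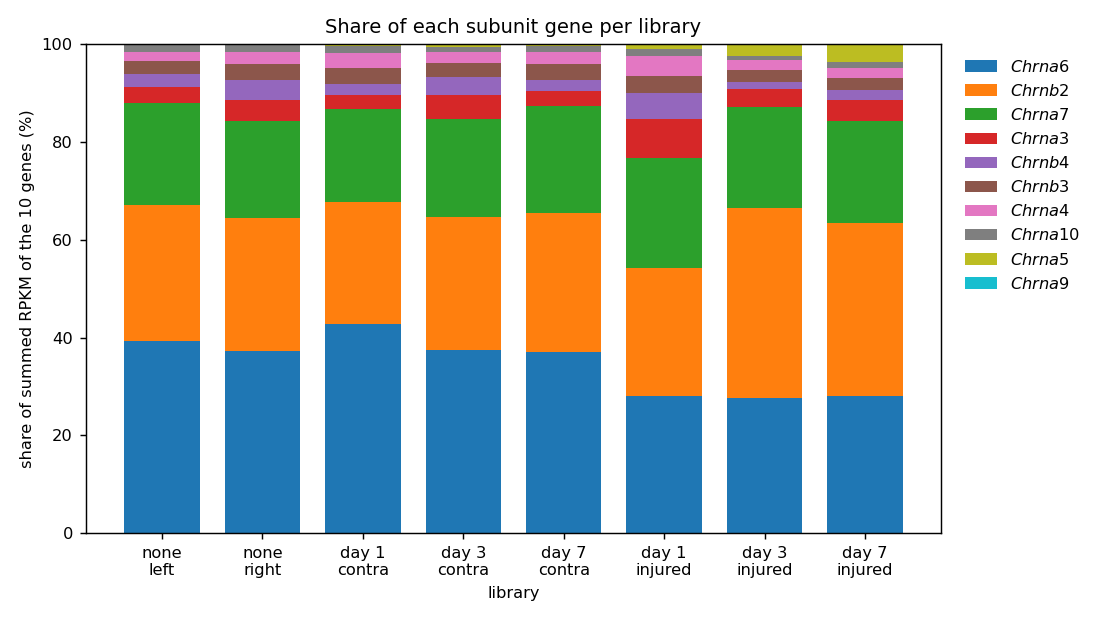
Share of each gene in the summed RPKM of the 10 subunit genes (y axis, percent) in each of the 8 libraries (x axis). The Chrna6 share is near 28% in the 3 injured libraries and at least 37.1% in the others, and Chrna9 is too small to see.

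Contralateral ganglia were compared with the no-injury pool, with its sides summed to 1 sample, whose spread is taken to be that of the contralateral libraries. No member was called by edgeR, beside 0.281% of 16747 genes, and none had an unadjusted p under 0.05 there or with DESeq2. Chrna5 had the largest difference, a log2 fold change of 1.17 ± 0.574 (SE) with an adjusted p of 0.633. The other 8 lay between -0.27 (Chrnb4) and 0.28 (Chrna4). The pools differ in sex markers as well as in injury.

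Cell type markers differed between the sides too. Of 12 sensory neuron markers 6 were called lower and none higher, beside 8.02% and 10.1% of all genes, with a median log2 fold change of -0.32, and their summed level was 9720, 7730 and 7990 CPM at days 1, 3 and 7 against 9790 to 10200 in the others. Macrophage markers summed to 63.5, 299 and 298 CPM on the injured side, against 79.5 to 163 elsewhere, and 1 of 8 was called higher. Schwann cell markers summed to 4290, 7310 and 7610 CPM on the injured side, against 4110 to 6990, with 2 of 6 called higher. For satellite glia the sums were 2040, 2680 and 2750 CPM on the injured side, against 1960 to 2540, with 1 of 4 called higher. Some lists set day 1 libraries apart. Spinal cord markers summed to 35.9 CPM in the day 1 injured library and to 16.0 to 28.0 CPM in the others. Chrna3, Chrnb4 and Chrna4 were highest in the day 1 injured library too. Nearly all of its sum was Aqp4 (17.4 CPM) and Slc1a2 (18.1 CPM). Slc6a5 and Mog had 4 and 3 reads there and their most reads in the day 7 pool, 41 contralaterally and 12 on the injured side. Olig2 and Mnx1 had at most 4 and 1 reads in any library. Neutrophil precursor markers summed to 165 CPM in the day 1 contralateral library and 5.27 CPM on its injured side, with 18.3 to 88.3 CPM elsewhere. The part of this make-up in the subunit changes was not tested.

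Other cholinergic genes were taken from 4 lists. Of 5 muscarinic receptor genes, the G protein-coupled receptors of acetylcholine, 4 were tested and 1 fell, beside 8.02% of all genes called lower. That was Chrm2, at 17.0, 10.6 and 11.3 CPM on the injured side, 26.6, 19.8 and 21.3 CPM contralaterally and 26.5 and 26.2 CPM without injury. Its injured libraries were the lowest of the 8, and its log2 fold change was -0.82 ± 0.0867 (SE, adjusted p 0.00226 in edgeR's test). Chrm4, the next by RPKM, had -0.29 ± 0.144 (adjusted p 0.203).

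Of 12 assembly factors and Ly6 modulators, proteins that help receptors to the membrane or alter their gating, 10 were tested, 3 fell and none rose, beside 8.02% and 10.1% of all genes tested. Tmem35a, the chaperone NACHO needed for Chrna7 assembly, was at 55.3, 37.2 and 37.3 CPM on the injured side and 62.0 to 69.3 CPM in the other libraries. Its log2 fold change was -0.62 ± 0.116 (SE, adjusted p 0.0173). Ly6h, a Ly6 protein that holds back Chrna7 receptors, had -0.73 ± 0.152 (0.0247), and Vsnl1, a calcium sensor that aids Chrna4 receptor traffic, had -0.49 ± 0.108 (0.0264). For all 3 genes the injured libraries of days 3 and 7 were the lowest. The 2 highest by RPKM, Ywhah (-0.01 ± 0.0728, adjusted p 0.941) and Lynx1 (0.07 ± 0.0738, 0.576), were not called. Ric3, another nicotinic chaperone, had 0.05 ± 0.0503 (0.547).

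Of 8 genes for acetylcholine synthesis, transport and breakdown 6 were tested, 3 fell and 1 rose, beside the same 8.02% and 10.1% of all genes. Ache, the acetylcholine-splitting enzyme, was at 114, 70.5 and 63.9 CPM on the injured side, 128, 112 and 110 CPM contralaterally and 110 and 116 CPM without injury. Day 1 overlapped the uninjured libraries and the later days did not. Its log2 fold change was -0.54 ± 0.126 (SE, adjusted p 0.0342). Its collagen anchor Colq fell by 0.81 ± 0.162 on the log2 scale (adjusted p 0.0161) and the related enzyme Bche fell by 0.35 ± 0.0997 (0.0466). Slc44a1, a choline transporter of general use, rose by 0.23 ± 0.0568 (0.0295). The transmitter's own synthesis and vesicle genes had few reads: Chat had at most 7 reads in a library and Slc18a3 at most 5.

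Of the 6 muscle-type and other nicotinic subunits 2 passed the filter and neither was called. Chrna1, the muscle alpha subunit, was at 1.32, 1.99 and 3.46 CPM on the injured side and 0.964 to 1.48 CPM in the others, a log2 fold change of 0.86 ± 0.289 (SE, adjusted p 0.0755). Chrnb1, its beta partner, had 0.57 ± 0.230 (adjusted p 0.122). The summed level of 8 skeletal muscle markers was 17.4, 28.0 and 116 CPM on the injured side, 15.1, 23.8 and 103 CPM contralaterally, and 152 (left) and 1080 (right) CPM without injury. Chrna1 was at 1.48 CPM in the library with the most muscle RNA.

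**Figure D5:**
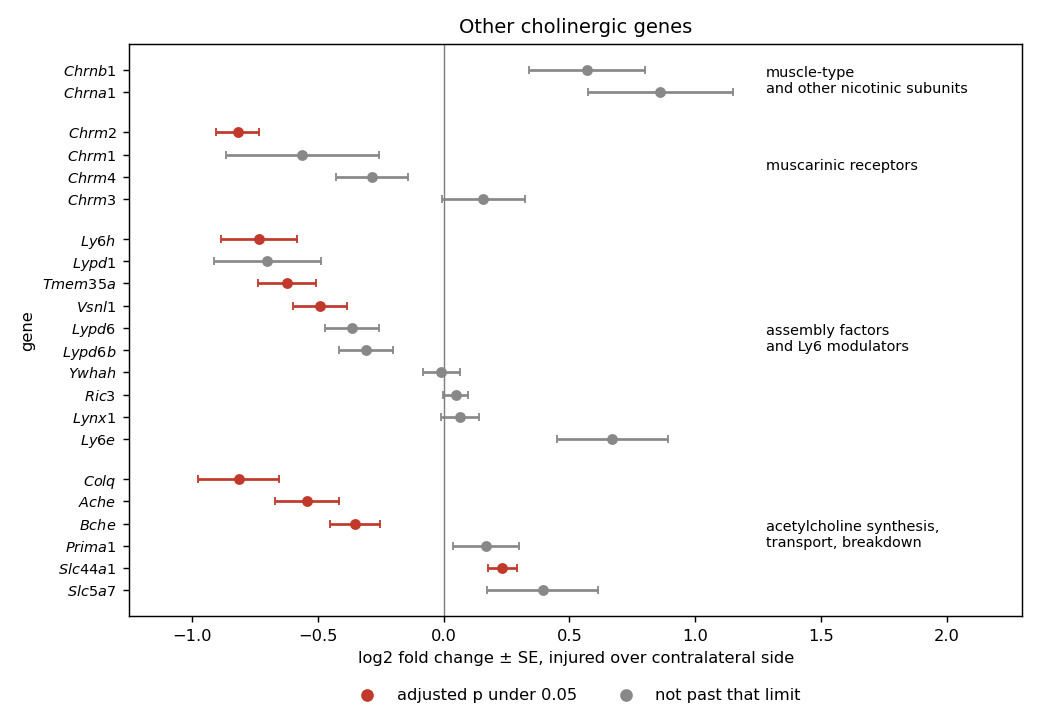
Log2 fold change of the injured over the contralateral side ± SE (x axis) for the tested genes of the 4 other cholinergic lists (y axis), red where the adjusted p was under 0.05. Of 22 genes 7 are called lower and 1, Slc44a1, higher, beside 8.02% and 10.1% of all genes tested.

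The genes whose pattern over the 8 libraries was most like that of a member were read from the Pearson r of log2 CPM among protein-coding genes with a mean of at least 1 CPM. For Chrna5 they were Gnpnat1 (0.995), Fam168b (0.995) and Kcnmb4 (0.994). For Chrna6 they were Adra2c (0.992), P2ry1 (0.992) and Minar1 (0.991). Chrna3 was closest to Cacna1a (0.952), Cacnb3 (0.951) and Elovl7 (0.949), and Chrnb4 to Ctif (0.987), Tmem170 (0.985) and Negr1 (0.981). Adra2c, an adrenergic receptor, was at 12.7, 9.22 and 10.2 CPM on the injured side and 17.4 to 20.8 CPM in the other libraries. It was picked for its r with Chrna6 over these libraries, so a split like that of Chrna6 follows from the choice. The 8 points share pools and sides, so these are descriptions.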

How the data were processed

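RNA-seq was deposited by the authors as 1 table of whole-number read counts per gene, 53801 genes in 8 libraries, with no column left out. The submitters' processing notes name STAR 2.5.4a, cutadapt 1.16, DESeq2 and featureCounts 1.6.3, without their roles, and the build GRCm38. Names and exon lengths came from GENCODE M21, which matched 53706 of the IDs.

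The main tests used edgeR 4.0.16 in R 4.3.3: filterByExpr (minimum count 10), TMM factors, robust quasi-likelihood F tests and Benjamini-Hochberg adjustment over all genes tested. The sides of a pool are the same mice, as the design text says, so the pool was a block (3 residual degrees of freedom; 2 for the term by day and for contralateral against no injury). The labels give 1 library per side and day, so the p-values measure the spread between pools of different days. Side ratios used TMM log2 CPM with a prior count of 2 and have no test. Intervals are 95% exact (Clopper-Pearson) and cover counting error only. An SE is the log2 fold change over the root of F. DESeq2 1.42.0, RLE factors, no filter, no block, a body side term and leaving out pools were alternatives.

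Tested on simulated counts of 14599 genes, the injury effect recovered 78%, 96%, 100% and 100% of genes changed 1.5, 2, 4 and 8-fold, with 6 of 193 calls false. The same fold changes gave 88%, 100%, 100% and 100% by day (per doubling of days), and 28%, 88%, 100% and 100% for the contralateral comparison. The simulated counts had a spread set by the gene mean alone and no difference between pools. These shares check the fits and do not give the power of the tests on the real counts.

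Named were all 10 members, and from each list of other cholinergic genes those with an adjusted p under 0.05 and the 2 highest by RPKM. For Chrna3, Chrnb4 and the members that passed the test, the 3 protein-coding genes with the highest r were named too. Ric3, Chat, Slc18a3 and single cell type markers were named after their values were seen. The members and lists were chosen with earlier results of these data known. Cell type lists are given by their sums and counts; the value of 1 of the markers is not reported here.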

Additional observations from a re-analysis of the deposited data

Results flagged for a closer look

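Under the same contrast, Chrna3 and Chrnb4 were both higher on the injured side at day 1 and both lower at day 3. The log2 side ratio of Chrna3 was 1.25 at day 1 and -1.24 at day 3. For Chrnb4 it was 1.08 at day 1, -2.16 at day 3 and -0.63 at day 7. Each day is 1 pool, and the difference between days was not called for either gene in the contrast of day 1 with days 3 and 7 (edgeR adjusted p 0.306 and 0.214). Chrna7 was the only member with a called difference in that contrast, chosen after the values were seen: its log2 side ratio at days 3 and 7 differed from that at day 1 by -0.75 (adjusted p 0.0467).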

How the results depend on the processing

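All 93 side ratio values of single members kept their direction and their side of the 2-fold limit under another prior count, read minimum or scaling. The read minimum sets only which ratios are counted and cannot move a ratio, so its values were the same by construction. With a minimum of 10 reads, 3 members in place of 2 were past 2-fold at day 1, and 6 in place of 5 at day 3. The added members were Chrna5 at day 1 (30 and 14 reads) and Chrna10 at day 3 (14 and 34 reads). The share over all genes was not taken at that limit, so these counts have no background beside them. Of the tested results, 72 values for the injury effect, 72 by day and 67 for the contralateral comparison kept their sign and their call or lack of one. A missing adjusted p was taken as no call. Their size could still differ: Chrna4 went from -0.47 to -0.02 for the injury effect with a body side term. The sign changed in 5 values for the injury effect, 10 by day and 5 for the contralateral comparison. With the sign kept, a call was gained in 8 for the injury effect and 8 by day, and lost in 5 for the injury effect. The cause of the changes below was not tested.

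For the injury effect the number of members called, 2, was 4 with DESeq2 (Chrna7 and Chrnb3 added), 0 with a body side term, 0 for injured libraries against no injury (Chrna5 2.81, Chrna6 -0.88), and 1 to 6 leaving out each pool. The count over all genes, 2946 of 16244, was 2538 with DESeq2, 6 with the side term and 23 against no injury. It was 1212 without the no-injury pool and 631 to 4669 leaving out each pool. With no replicate block, the pool not being a term, 3 members were called (Chrnb2 added), beside 2902 of 16244 genes. The same 3 were called with no low-count filter, beside 3231 of 29919 genes. Chrna3 changed sign with no filter (-0.003217), with DESeq2 (-0.0245) and leaving out pools (-0.67 to 0.63), as did Chrnb4 with the side term (0.0875) and leaving out pools (-1.42 to 0.31).

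By day 0 members were called, 1 in the added contrast of day 1 with days 3 and 7, and 0 to 6 leaving out each pool, the 6 without the day 7 pool and 1 (Chrna7) without the day 3 pool. DESeq2 gave 6 members no adjusted p. Over all genes the 0 calls became 9 with RLE factors, 32 with no filter, 49 with DESeq2 and 174 in the added contrast. They became 1214 without the day 7 pool, 519 without the day 3 pool and 94 without the day 1 pool. Each member's slope changed sign when a pool was left out: Chrna3 -1.59 to 0.99, Chrna4 -0.79 to 0.16, Chrna5 -0.0552 to 1.06, Chrna6 -0.33 to 0.36, Chrna7 -0.56 to 0.23, Chrna10 -0.60 to 0.69, Chrnb2 -0.16 to 0.17, Chrnb3 -0.74 to 0.33 and Chrnb4 -2.09 to 1.30. Chrna10 was at 0.002838 with the day not logged.

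For contralateral against no injury 0 members were called under every alternative run. The 47 calls over all genes became 698 with no filter, 162 with DESeq2, 372 with the no-injury sides as separate samples and 16 to 954 leaving out each contralateral library. Chrna3 changed sign against the right library alone (-0.15) and leaving out libraries (-0.25 to 0.22), Chrnb3 against the right library alone (-0.0265), and Chrna10 (-0.30 to 0.0417) and Chrnb2 (-0.0284 to 0.0702) leaving out libraries.

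With 1 pool per day, day and pool cannot be told apart. Chrna9, at the floor, could not be compared, and Chrna5 and Chrna10 rest on means of 33.6 and 37.4 reads.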
